A study of Mus musculus with 4 samples.

Results

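The genes described here are 10 members of the mouse chemokine system: the ligands Ccl3, Ccl4, Ccl6, Ccl9, Ccl5 and Xcl1 and the receptors Ccr1, Cxcr4, Cxcr2 and Cx3cr1. They were taken by symbol, and all 10 were found among the 32227 genes of the count matrices. The cells were bone marrow progenitors of wild-type (WT) mice that had been given E0771 cells, a mouse breast cancer line, 3 days before surgery, so both groups carried the tumour. The surgery group had ligation of the femoral artery, the main vessel of the hind limb, and the sham group had a sham operation; marrow was taken 9 days later. Cells without lineage markers that carried cKit, both Sca1+ and Sca1-, were sorted by flow cytometry and sequenced by PIPseq, a single-cell method that uses templated emulsions. Each group had 4 replicates marked by hashtags, 2 in each of 2 libraries, which are called batch 1 and batch 2. By its title, the study concerns ischaemic injury, ageing of the blood system and tumour growth; the age of the mice was not used here.

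Chemokines are small secreted proteins that bind G-protein-coupled receptors and steer the movement of leukocytes. In marrow, Cxcr4 binds Cxcl12 made by stromal cells and holds stem cells, B-cell precursors and neutrophils in place, whereas Cxcr2 binds Cxcl1 and Cxcl2 and favours neutrophil release. Ccl3 and Ccl5 act through Ccr1, among others, which in mice is a receptor for Ccl6 and Ccl9 as well.

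The 4 surgery replicates held between 1878 and 3523 cells and the 4 sham replicates between 2392 and 5872, 26880 cells in all. Total UMIs (unique molecular identifiers, a count of captured molecules) were between 24773572 and 45330708 per surgery replicate and between 19450143 and 51682320 per sham replicate. Median UMIs per cell were between 5860.5 and 7206.5 in batch 1 and between 10291 and 12393.5 in batch 2, so depth differed more between batches than between groups. A single treatment label is given per library, ligation for batch 1 and sham for batch 2, but by the hashtag labels each library holds both groups. Replicates were assigned by hashtag name, and wrong names in batch 2, where the matrix lists surgery first, would exchange the groups of that batch. This bears on every comparison of surgery with sham below, whether its sign differs between batches or not. The libraries shared 4 of the kept cell barcodes. Whether each replicate came from 1 mouse or several is not in the labels; p-values therefore rest on the spread among these replicates, which may be partly technical.

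Cells were put into types by marker genes, none of which is among the 10 genes, and a type name stands for cells with the markers of that class. The gate named 5030 neutrophil-granulocyte progenitors, 3520 monocyte progenitors, 1855 HSC and early multipotent cells (HSC, haematopoietic stem cells), 1285 basophil-mast cells, 919 lymphoid-primed cells and smaller types, and left 6383 cells without a type. The sort was for progenitors, yet it also held 2778 B cells, 432 T, NK or innate lymphoid cells, 324 cells with MHC class II genes of dendritic cells and 367 cells with MHC class II and B-cell genes. Levels are in CPM, the UMIs of a gene divided by all UMIs of that replicate and type and scaled to a total of 1000000, and are given as mean ± SD over replicates. Because fewer cells of a type and less RNA per cell cannot be told apart in sums over all cells, each gene is given by type before the groups are compared.

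**Figure D1:**
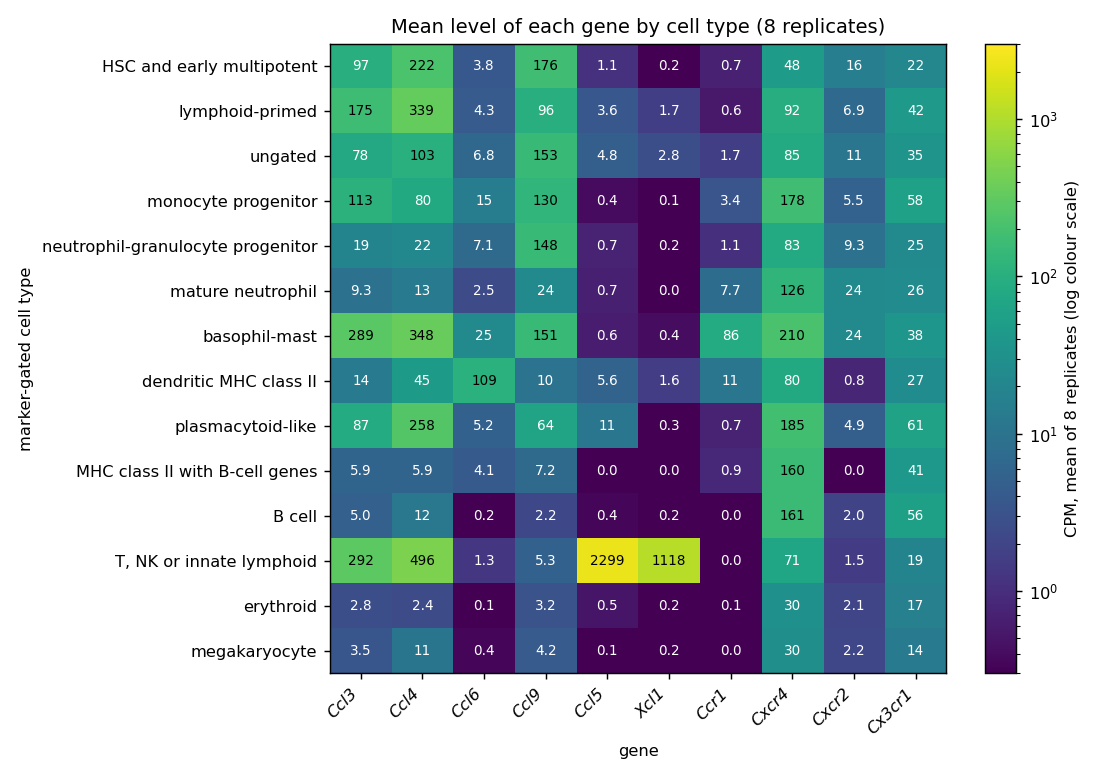
Mean CPM of each gene (columns) in each marker-gated cell type (rows) over 8 replicates, with the value printed and a logarithmic colour scale whose lowest colour covers values under 0.3 CPM. Ccl5 and Xcl1 stand in the T, NK or innate lymphoid row, Ccr1 in the basophil-mast row and Ccl6 in the dendritic row, whereas Cxcr4 and Cx3cr1 have signal in every row.

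Ccl3 and Ccl4, which code for the macrophage inflammatory proteins that draw monocytes and T cells, were high in several immature types and in lymphocytes. Ccl3 was highest in T, NK or innate lymphoid cells (292.5 ± 199 CPM, SD, n = 8) and basophil-mast cells (289 ± 91.9 CPM), followed by lymphoid-primed cells (175 ± 51.1 CPM), monocyte progenitors (113 ± 30.8 CPM) and HSC and early multipotent cells (96.7 ± 23.3 CPM). Neighbours in that order overlapped in their replicate ranges as far down as ungated cells (78.2 ± 15.3 CPM), below which neutrophil-granulocyte progenitors stood apart at 19.2 ± 2.38 CPM. Erythroid cells had the lowest Ccl3 level, 2.78 ± 1.66 CPM. The order in the middle depended on how cells were grouped: in Leiden clusters, groups of cells with like profiles found without the gate, Ccl3 was 169 ± 35.7 CPM in the HSC cluster, 158 ± 36.4 CPM in the lymphoid-primed cluster and between 72.5 and 126.5 CPM in the 3 monocyte clusters.

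Ccl4 shared its first 3 types with Ccl3, but plasmacytoid-like cells came next and monocyte progenitors (80.2 ± 20.7 CPM) stood below ungated cells: 496 ± 258 CPM in T, NK or innate lymphoid cells, 348 ± 96.4 CPM in basophil-mast cells, 339 ± 114 CPM in lymphoid-primed cells, 258 ± 118 CPM in plasmacytoid-like cells and 222 ± 29.4 CPM in HSC and early multipotent cells (SD, n = 8). The HSC level was 2.16-fold that of ungated cells, with ranges that did not overlap, and it was 336 ± 17.8 CPM in the HSC cluster, while erythroid cells had 2.43 ± 1.29 CPM. The balance of the pair changed between types. The log2 ratio of Ccl4 to Ccl3 UMIs was 1.23 ± 0.35 in HSC and early multipotent cells and above 0 in 8 of 8 replicates, and it was -0.49 ± 0.31 in monocyte progenitors and above 0 in 0 of 8. The ratio itself does not compare amounts of the 2 transcripts; only its change between types is described.

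Single cells with Ccl3 often had Ccl4. To compare shares across depths, each cell was thinned to 2000 UMIs, which left 23969 cells. Of the 2131 thinned cells with a Ccl3 UMI, 33.9% also had a Ccl4 UMI, against 8.02% of cells without Ccl3. Within types the same shares were 53.5% against 18.3% in basophil-mast cells, 57.2% against 25.7% in lymphoid-primed cells, 65.4% against 18.2% in T, NK or innate lymphoid cells, and 18.4% against 10.5% in monocyte progenitors. In erythroid cells, used for the background of free RNA, 0.396% of 2273 thinned cells had a Ccl3 UMI, against 25.1% of basophil-mast cells (median depths before thinning 13010 and 6511 UMIs). Ccl3 UMIs were unevenly spread among basophil-mast cells: the 1% of cells with most of them held 16.2% of the total, with up to 61 UMIs in 1 cell. By total output, monocyte progenitors gave 31.5% of all Ccl3 UMIs and basophil-mast cells 15.9%, from 13.1% and 4.78% of the cells.

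The start regions of Ccl3, Ccr1 and Ccl9 are printed. Ccl3 and Ccr1 were both high in basophil-mast cells, and Ccl9 lies near Ccl3 on chromosome 11. Ccl9 had 151 ± 26.0 CPM in basophil-mast cells, near its highest level. Over the 14 types the Pearson correlation of mean log2(CPM + 1) with Ccl3 was 0.67 for Ccl9 and 0.30 for Ccr1. The start regions thus do not contrast like with unlike distributions. Each is the 250 bases before the RefSeq start (build GRCm38.p6), 5′ to 3′ on the gene's strand: Ccl3 at chr11:83649379-83649628, Ccr1 at chr9:123968693-123968942 and Ccl9 at chr11:83578637-83578886, all on the minus strand. Capitals mark GAGGAA (a core of the motif of PU.1) and TGTGGT (a core of the RUNX motif), each on either strand. They also mark TATAAA on the gene strand and, on either strand, TGANTCA, a loose spelling of the AP-1 motif with any base at N.
Ccl3: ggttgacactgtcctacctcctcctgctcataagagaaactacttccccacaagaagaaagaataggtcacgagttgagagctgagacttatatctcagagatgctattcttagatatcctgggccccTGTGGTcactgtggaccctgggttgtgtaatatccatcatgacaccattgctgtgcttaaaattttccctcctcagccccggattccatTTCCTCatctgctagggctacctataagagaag
Ccr1: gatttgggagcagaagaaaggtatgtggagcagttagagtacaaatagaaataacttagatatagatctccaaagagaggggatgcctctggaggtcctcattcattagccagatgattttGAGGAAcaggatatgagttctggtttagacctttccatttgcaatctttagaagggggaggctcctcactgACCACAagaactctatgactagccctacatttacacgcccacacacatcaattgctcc
Ccl9: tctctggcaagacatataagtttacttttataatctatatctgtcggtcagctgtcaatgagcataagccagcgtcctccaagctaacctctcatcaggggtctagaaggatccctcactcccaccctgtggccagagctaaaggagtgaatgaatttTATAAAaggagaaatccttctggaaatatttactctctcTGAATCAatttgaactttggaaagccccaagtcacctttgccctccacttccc
The Ccl3 and Ccr1 windows each held 1 PU.1 core and 1 RUNX core, which do not overlap, and the Ccl9 window held neither. Like Ccr1, Cxcr2 and Cxcr4 had their highest mean in basophil-mast cells, but their ranges overlapped those of the next type. Of the motifs searched, the Cxcr2 window held only a PU.1 core and the Cxcr4 window only TATAAA. A RUNX core stood as well in the windows of Xcl1 and Cx3cr1, whose highest means were in other types. The PU.1 core was found in 23.25% of 32851 such windows of the table and the RUNX core in 14.05%. TATAAA and TGANTCA, found in 7.59% and 6.75% of windows, stood in the Ccl9 window, the latter as TGAATCA with A at the open position. A GATA-factor core spelled AGATAA was found in 9.99% of windows on either strand, a C/EBP core spelled TTGCNNAA in 9.56% and an NF-kB motif in 1.21%. These motifs were in none of the 3 printed windows, which says only that those letters are not there.

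Ccl9 and Ccl6 are mouse ligands of Ccr1 that attract myeloid cells. Ccl9 was broad across early and myeloid types: 177 ± 32.0 CPM in HSC and early multipotent cells, 153 ± 27.4 CPM in ungated cells, 151 ± 26.0 CPM in basophil-mast cells, 149 ± 17.6 CPM in neutrophil-granulocyte progenitors and 130 ± 18.5 CPM in monocyte progenitors (SD, n = 8). These 5 neighbours overlapped in their replicate ranges. Mature neutrophils had 24.5 ± 16.9 CPM of Ccl9, and B cells, erythroid cells and megakaryocytes had 2.22 ± 0.88, 3.22 ± 0.94 and 4.18 ± 2.25 CPM. In neutrophil-granulocyte progenitors Ccl9 thus stood near its highest level, while Ccl3 and Ccl4 there were at 19.2 and 22.4 CPM, far under their own maxima.

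Ccl6 had its highest level in the dendritic MHC class II cells, 109 ± 67.9 CPM, on only 101 UMIs. It had 24.5 ± 12.8 CPM in basophil-mast cells and 14.8 ± 1.60 CPM in monocyte progenitors, which was 2.08-fold the level of neutrophil-granulocyte progenitors without overlap. B cells held 2 Ccl6 UMIs in all, under the limit of 0.247 CPM that 3 counts over their 8 replicates would give. In basophil-mast cells the 1% of cells richest in Ccl6 held 53.1% of its UMIs, and 1 cell, of a sham replicate, had 46 UMIs. Ccl6 overlaps the antisense transcript E230016K23Rik, and it is not known here whether counting used the strand; E230016K23Rik had 5.02 ± 9.22 CPM in the dendritic cells and 3.30 ± 1.52 CPM in basophil-mast cells.

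The 5 CC ligands lie side by side on chromosome 11 of GRCm38, with no other protein-coding gene that was counted between Ccl5 and Ccl4. Ccl5 spans chr11:83525778-83530518, Ccl9 chr11:83572919-83578636, Ccl6 chr11:83587882-83593087 and Ccl3 chr11:83647844-83649355 on the minus strand, and Ccl4 spans chr11:83662584-83664683 on the plus strand. Over the 14 types, the Pearson correlation of mean log2(CPM + 1) was 0.96 between Ccl3 and Ccl4, 0.67 between Ccl3 and Ccl9 and 0.38 between Ccl3 and Ccl6; the types share libraries and depth, and these values are a description. Neighbours on the chromosome thus ranged from a shared to a different distribution over types.

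Ccl5 and Xcl1 are products of cytotoxic lymphocytes: Ccl5 recruits T cells and monocytes, and Xcl1 draws cross-presenting dendritic cells through Xcr1. Ccl5 in T, NK or innate lymphoid cells was 2133, 1817, 2817 and 3071 CPM in surgery replicates and 1976, 1695, 2489 and 2392 CPM in sham replicates, given here and below as batch 1 and then batch 2. The groups overlapped, and both batch 2 groups were above those of batch 1. The mean of 2299 ± 484 CPM (SD, n = 8) was 205-fold that of the next type. Xcl1 in the same cells had 905, 808, 1666 and 1129 CPM in surgery replicates and 984, 990, 1474 and 991 CPM in sham replicates. The groups overlapped again, and the mean of 1118 ± 298 CPM was 406-fold that of the next type.

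These 432 cells, 1.61% of all, gave 89.1% of Ccl5 UMIs and 90.0% of Xcl1 UMIs. Of their thinned cells 79.9% had Ccl5 and 63.0% had Xcl1, and 74.2% of those with Ccl5 also had Xcl1, against 18.4% of those without. Erythroid cells had Ccl5 in 0.220% of thinned cells and Xcl1 in 0 of 2273. Ungated cells gave 288 further Ccl5 UMIs, of which 96.2% came from the 1% of cells with most of them. Mature neutrophils held 0 Xcl1 UMIs, where 3 counts would be 0.935 CPM. Xcl1 overlaps Gm20743 on the other strand, which had 0.322 ± 0.911 CPM in the lymphocytes.

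Ccr1, the receptor shared by Ccl3, Ccl5, Ccl6 and Ccl9, was concentrated in 1 type. Basophil-mast cells had 87.5, 105, 60.9 and 80.2 CPM in surgery replicates and 71.8, 98.4, 102 and 81.5 CPM in sham replicates. All 8 values were above every value of every other type, and the mean, 85.9 ± 15.3 CPM, was 7.58-fold that of the next. These cells gave 66.6% of Ccr1 UMIs. B cells, megakaryocytes and T, NK or innate lymphoid cells had 0 Ccr1 UMIs, where 3 counts over the 8 replicates would be 0.247, 0.496 and 1.69 CPM. Ccl3 and Ccr1 were found in the same basophil-mast cells: 27.1% of thinned cells with Ccl3 had Ccr1, against 12.2% of those without.

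Cxcr4 was found in every type. It was highest in basophil-mast cells (210 ± 20.3 CPM), plasmacytoid-like cells (185 ± 50.2 CPM), monocyte progenitors (178 ± 24.0 CPM) and B cells (161 ± 21.1 CPM), intermediate in neutrophil-granulocyte progenitors (83.2 ± 5.38 CPM), and lower in HSC and early multipotent cells (48.3 ± 8.79 CPM), erythroid cells (30.5 ± 4.22 CPM) and megakaryocytes (29.7 ± 6.17 CPM; SD, n = 8). Neighbours among the leading 4 overlapped. Leiden clusters showed further steps within 2 of these types. A B-cell cluster led by Myl4 and Bach2 (367 cells) had 344 ± 63.1 CPM, against 126 to 195 CPM in the other 3 B-cell clusters, and a monocyte cluster led by Lgals3 and S100a4 had 249 ± 27.1 CPM, against 122 ± 20.2 and 116 ± 17.3 CPM in the other 2.

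Cxcr2 was low throughout, at most 24.3 ± 6.67 CPM in basophil-mast cells, 23.6 ± 12.2 CPM in mature neutrophils and 15.6 ± 4.06 CPM in HSC and early multipotent cells, levels whose neighbours overlapped. Cx3cr1, the receptor of Cx3cl1 and a gene of the monocyte lineage, was between 13.6 ± 3.89 CPM in megakaryocytes and 61.3 ± 15.01 CPM in plasmacytoid-like cells, with 57.5 ± 4.86 CPM in monocyte progenitors. Its GENCODE span of 168264 bases holds 9 other counted genes, so its level is uncertain in every type. Among the 9, Wdr48 on the other strand had 28.5 ± 1.01 CPM over all cells and 26.5 ± 2.34 CPM in monocyte progenitors. In erythroid cells 2.77% of thinned cells had a Cx3cr1 UMI, against 10.5% of monocyte progenitors.

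Levels in the sorted cells are given for 2 partners of these genes. Xcr1, the receptor of Xcl1, had 14.3 ± 13.5 CPM in the dendritic cells. Cxcl12, the ligand of Cxcr4, had 0.114 ± 0.0276 CPM over all cells.

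Genes with the most similar distribution over the 14 types were sought among 9777 genes other than the 10 and the markers, by Pearson correlation of mean log2(CPM + 1). Ccl3 was nearest to Emb (0.89), then 4833438C02Rik and C030034L19Rik, and Ccl4 to Atp10a (0.92), Gm14636 and Emb. Ccl6 was nearest to Gm2a (0.89), Pepd and Cst3, and Ccl9 to Slc4a8 (0.92), Chdh and Rab44. Ccl5 was nearest to Klri2 (0.98), Gm2682 and Klre1, and Xcl1 to Klra8 (0.99), Samd3 and Gzma. Among receptors, Ccr1 was nearest to Nhsl2 (0.85), H4c4 and Man2b1, and Cxcr4 to Cyp4f18 (0.82), Tmem156 and Ube2w. Cxcr2 was nearest to Flot1 (0.96), Mfsd13a and Ncoa4, and Cx3cr1 to Ivd (0.86), Usf1 and Slc2a7. Klri2 and Klra8 code for receptors of natural killer cells.

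Surgery was compared with sham by edgeR's quasi-likelihood test on sums per replicate, with batch as a term, over all genes of each comparison. Over all cells none of the 10 genes passed an adjusted p of 0.05, and 1 of the 10, Ccl9, had an unadjusted p under 0.05; 0.0415% of 16852 genes were called in that comparison. Ccl9 had 99.5, 110.0, 152 and 127 CPM in surgery replicates and 94.7, 101, 117 and 128 CPM in sham replicates. The groups overlapped, and batch 2 was higher in both (log2 fold change, surgery over sham, 0.16 ± 0.06 SE; edgeR adjusted p = 0.9999). Ccl3 had 62.1 ± 12.4 CPM in surgery and 63.9 ± 12.0 CPM in sham replicates, and Ccl4 78.1 ± 11.3 and 78.8 ± 12.9 CPM (SD, n = 4 each). Their log2 fold changes were -0.03 ± 0.08 and 0.01 ± 0.09. Ccl6, Ccr1 and Cxcr2 had log2 fold changes of 0.16 ± 0.08, 0.04 ± 0.15 and 0.04 ± 0.09, and Cxcr4 and Cx3cr1 of -0.04 ± 0.09 and -0.03 ± 0.06.

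**Figure D2:**
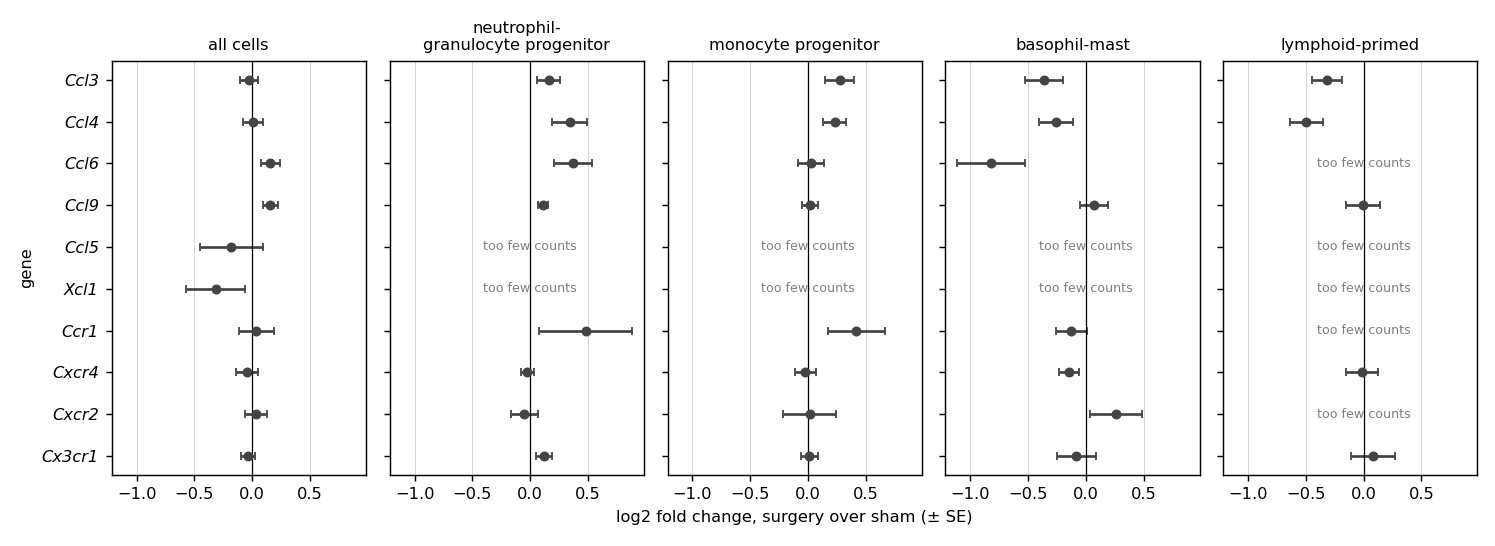
Log2 fold change of surgery over sham (x axis, ± SE) of each gene (y axis) over all cells and in 4 marker-gated cell types. Ccl3 and Ccl4 have estimates above 0 in both myeloid progenitor panels and below 0 in the basophil-mast and lymphoid-primed panels, and no estimate passed the threshold.

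Within cell types, 68 of the 140 combinations of gene and type had enough counts to be tested, and none was called. An unadjusted p under 0.05 was found for 15 of the 68, 22.1%, against 2.93% to 9.58% of all genes in the single comparisons. Combinations share replicates and some genes share cells, so these are not independent. The 10 genes were also chosen with earlier results of these data known, so the excess is no evidence of a response to surgery. DESeq2 called none either. The share of genes called was 0.0233% in ungated cells, 0.0706% in neutrophil-granulocyte progenitors, 0.0996% in monocyte progenitors, 0.0393% in HSC and early multipotent cells, 0.312% in lymphoid-primed cells, 0.0801% in plasmacytoid-like cells and 0.0186% in mature neutrophils. It was 0.0% in B cells, erythroid cells, basophil-mast cells, megakaryocytes, T, NK or innate lymphoid cells, dendritic cells and MHC class II cells with B-cell genes.

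Ccl4 in lymphoid-primed cells came nearest to the threshold. It had 332, 266, 179 and 313 CPM in surgery replicates and 363, 300.3, 576 and 380 CPM in sham replicates. The groups overlapped, and surgery replicate 1 and sham replicate 1 of batch 2 lay farthest apart. The log2 fold change was -0.50 ± 0.14 (edgeR adjusted p = 0.170), and within batches it was -0.12 in batch 1 and -0.84 in batch 2. The edgeR adjusted p was 0.0433 without surgery replicate 1 of batch 1, 0.0402 without sham replicate 2 of batch 1, 0.787 without sham replicate 1 of batch 2, and 0.998 (log2 fold change -0.18) in the Leiden cluster with the same markers. That cluster held 1886 cells, against 919 in the gate, and took in 91.65% of the plasmacytoid-like cells. In the plasmacytoid-like gate the Ccl4 estimate was 0.30 ± 0.16, not called. Ccl3 in lymphoid-primed cells had 163, 135, 170 and 160 CPM in surgery replicates and 107, 165, 231 and 267 CPM in sham replicates. The 4 surgery values lay inside the sham range (log2 fold change -0.32 ± 0.13, edgeR adjusted p = 0.552). The estimate was 0.03 in batch 1 and -0.59 in batch 2, and 0.0057 with cells thinned to 2000 UMIs.

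**Figure D3:**
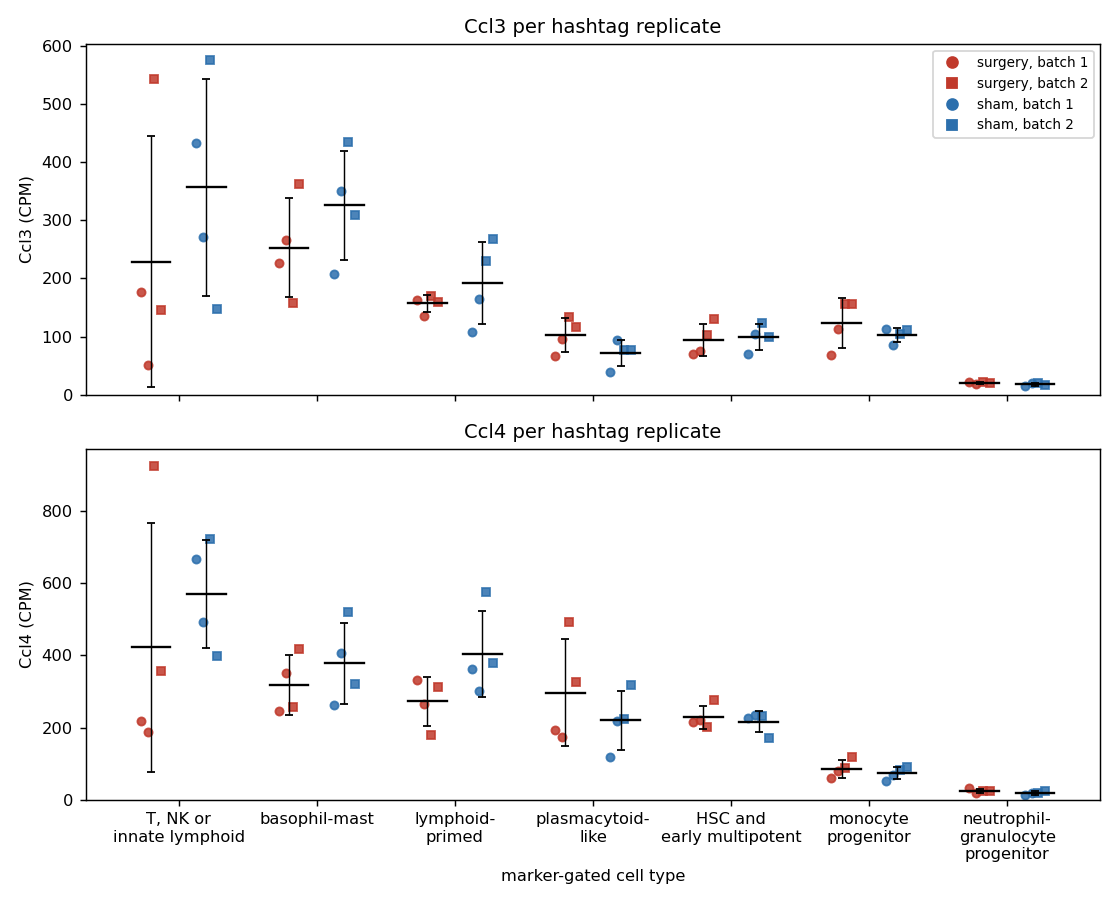
CPM of Ccl3 (upper panel) and Ccl4 (lower panel) per hashtag replicate in 7 cell types, with surgery left of sham, circles for batch 1, squares for batch 2, a bar at the mean and an error bar of 1 SD (n = 4). Surgery and sham overlap in every type shown; in lymphoid-primed cells the sham mean of Ccl4, 405 CPM, is above the surgery mean, 272.5 CPM.

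In basophil-mast cells Ccl3 had 227, 265, 157 and 362 CPM in surgery replicates and 207, 350, 435 and 310 CPM in sham replicates, with overlapping groups and a log2 fold change of -0.36 ± 0.17 (edgeR adjusted p = 0.999). Ccl6 in these cells had 17.3, 25.7, 19.0 and 10.99 CPM in surgery replicates and 22.6, 19.5, 53.5 and 27.6 CPM in sham replicates. Sham replicate 1 of batch 2 was the highest, and the log2 fold change was 0.07 in batch 1 and -1.505 in batch 2 (-0.82 ± 0.29 over both, edgeR adjusted p = 0.999). In that replicate 46 of its 68 Ccl6 UMIs came from 1 cell, and without this cell it had 17.4 CPM. The log2 fold change without the cell was -0.69 in batch 2 and -0.32 ± 0.26 over both (edgeR adjusted p = 0.9999). Ccr1 and Cxcr4 in basophil-mast cells differed by -0.13 ± 0.13 and -0.14 ± 0.09.

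In the myeloid progenitors (monocyte and neutrophil-granulocyte) the estimates of Ccl3 and Ccl4 lay above 0. Those of Cxcr4 in both types, and of Cxcr2 in neutrophil-granulocyte progenitors, lay below it. In monocyte progenitors Ccl3 had 123 ± 42.2 CPM in surgery and 103 ± 12.5 CPM in sham replicates, and Ccl4 86.3 ± 24.9 and 74.1 ± 16.8 CPM (SD, n = 4 each); the log2 fold changes were 0.28 ± 0.13 and 0.23 ± 0.10. The Ccl3 estimate was -0.08 in batch 1 and 0.57 in batch 2. In neutrophil-granulocyte progenitors Ccl4, Ccl6 and Ccl9 had log2 fold changes of 0.34 ± 0.15, 0.37 ± 0.17 and 0.12 ± 0.04. Of these 5 estimates none was called (edgeR adjusted p = 1 for each). Ccl6 in ungated cells had 7.34, 7.49, 8.15 and 7.53 CPM in surgery replicates and 6.24, 4.74, 6.95 and 5.79 CPM in sham replicates. These groups did not overlap, but the gene was not called (log2 fold change 0.39 ± 0.16, edgeR adjusted p = 0.9999). Of the 10 genes tested in ungated cells, it was the only 1 so separated. The share of all genes whose groups do not overlap was not counted, so no weight is placed on this. Ccl9 in plasmacytoid-like cells (0.56 ± 0.26) and Ccl6 in the dendritic cells (-0.90 ± 0.37) had an unadjusted p under 0.05 as well. No test of a difference between cell types was made, since no gene was called in any.

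Of 78 edgeR tests of the interaction of group and batch, 14 had an unadjusted p under 0.05, a share that was not counted over all genes. The 78 tests share replicates and cells and are not independent. Among them, Cxcr4 in monocyte progenitors was the only case whose surgery effect differed between batches past the threshold. It had 197 and 208 CPM in the surgery replicates of batch 1, against 154 and 175 CPM in its sham replicates, and 140 and 165 CPM in the surgery replicates of batch 2, against 190 and 197 CPM in its sham replicates. The groups did not overlap within either batch, and they stood in opposite order. With 2 replicates per group in each batch, such separation is easily reached by chance, and its share over all genes was not counted. The log2 fold change was 0.28 in batch 1 and -0.31 in batch 2, a difference of -0.59 (edgeR interaction, adjusted p = 0.0447), where 0.141% of 12045 genes were called. Pooled over batches it was -0.02 ± 0.09. The call was lost without surgery replicate 1 or 2 of batch 1 (edgeR adjusted p = 0.0625 and 0.185), without surgery replicate 1 of batch 2 (0.206), without sham replicate 1 of batch 1 (0.111) and without sham replicate 1 or 2 of batch 2 (0.115 and 0.232).

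The Lgals3 cluster, where Cxcr4 was high, made up a like share of the monocyte progenitors throughout: 38.7% in surgery and 37.9% in sham replicates of batch 1, and 38.2% in surgery and 35.0% in sham replicates of batch 2. Inside that cluster Cxcr4 was 268 CPM in surgery and 232 CPM in sham replicates of batch 1, and 224 CPM in surgery and 280 CPM in sham replicates of batch 2. Outside it, the means were 162 and 124 CPM in surgery and sham of batch 1, and 114 and 152 CPM in surgery and sham of batch 2. The opposite order of the groups was thus present in both subsets. Over all cells Cxcr4 had log2 fold changes of 0.20 in batch 1 and -0.28 in batch 2, a difference that was not called (edgeR interaction, adjusted p = 0.290). Estimates above 0 in batch 1 and below 0 in batch 2, with no difference called, were found in other types too. They were 0.12 and -0.31 in ungated cells, 0.09 and -0.13 in neutrophil-granulocyte progenitors, and 0.22 and -0.81 in plasmacytoid-like cells. Lymphoid-primed cells had 0.17 and -0.19, erythroid cells 0.25 and -0.11, and B cells 0.001 and -0.32. In the other types tested, both batch estimates lay below 0.

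**Figure D4:**
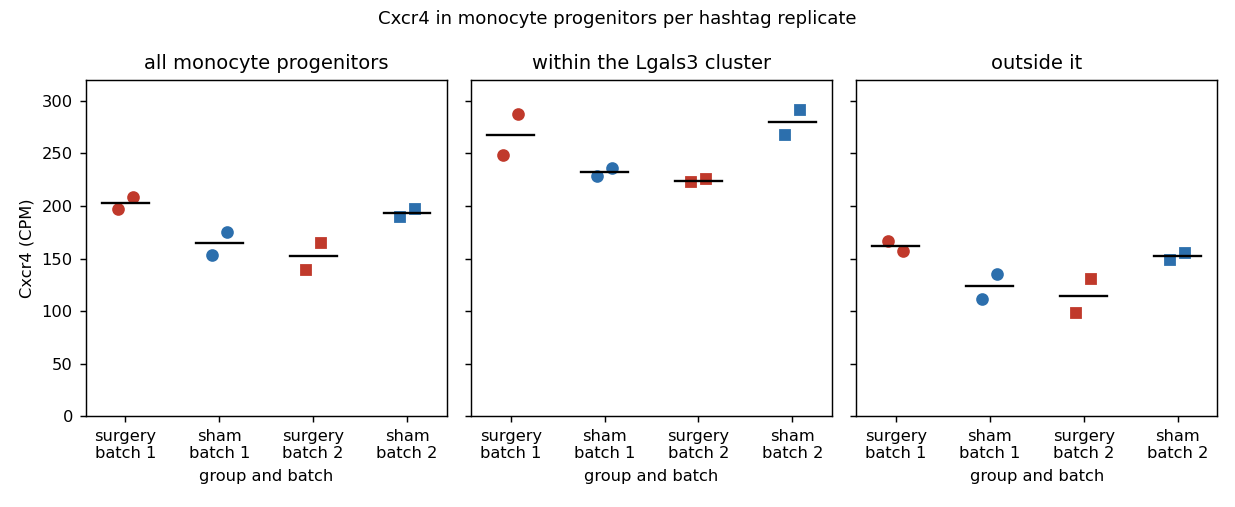
Cxcr4 CPM per hashtag replicate (points; bar, mean of 2) by group and batch in all monocyte progenitors, in those of the Lgals3 cluster and in the others. In batch 1 surgery lies above sham and in batch 2 below it, in each panel.

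Ccl5 and Xcl1 over all cells followed the same opposite order. Ccl5 had 17.0, 16.0, 9.37 and 14.9 CPM in surgery replicates and 11.6, 10.5, 24.6 and 21.8 CPM in sham replicates, so surgery was higher in batch 1 and lower in batch 2 without overlap. With 2 replicates per group in each batch, such separation is easily reached by chance. The share of all genes that separate in this way was not counted. The log2 fold change was 0.58 in batch 1 and -0.88 in batch 2 (edgeR interaction, adjusted p = 0.196). Xcl1 had 7.39, 7.35, 5.17 and 6.31 CPM in surgery replicates and 5.81, 5.77, 13.9 and 8.51 CPM in sham replicates, again without overlap within a batch. Its log2 fold change was 0.35 in batch 1 and -0.93 in batch 2 (edgeR interaction, adjusted p = 0.428). The share of T, NK or innate lymphoid cells, which hold most of these UMIs, was 1.73%, 1.63%, 0.905% and 1.28% in surgery replicates and 1.21%, 1.23%, 2.36% and 2.38% in sham replicates, in the same order within each batch. Over the 8 replicates it was 1.39 ± 0.375% in surgery and 1.80 ± 0.665% in sham (exact two-sided permutation test over 70 splits, p = 0.343, adjusted over 18 types 0.882). That test took no account of batch, although the order of the groups in this share differed between batches. The part of this share in the Ccl5 and Xcl1 values was not tested. Within these cells Ccl5 had a log2 fold change of 0.14 in batch 1 and 0.30 in batch 2 (0.22 ± 0.08 over both, edgeR adjusted p = 0.9998), and Xcl1 of 0.00 ± 0.14.

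**Figure D5:**
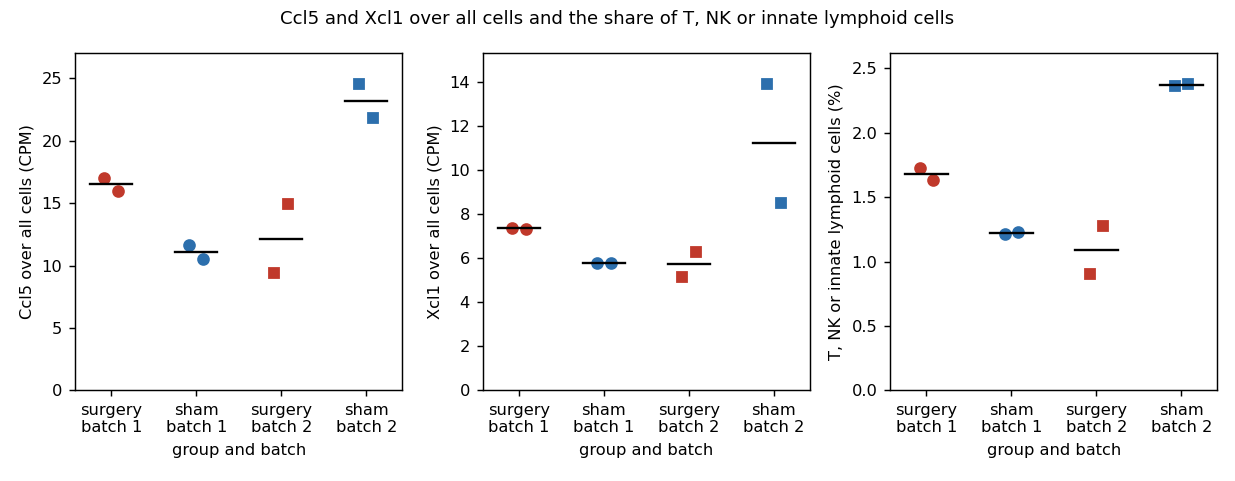
Ccl5 (left) and Xcl1 (middle) in CPM over all cells, and the percentage of T, NK or innate lymphoid cells (right), per hashtag replicate (points; bar, mean of 2) by group and batch. All 3 quantities are higher in surgery than in sham in batch 1 and lower in batch 2.

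Within the T, NK or innate lymphoid cells, Cxcr4 had 60.7, 73.0, 26.5 and 46.6 CPM in surgery replicates and 72.2, 113, 74.7 and 100.3 CPM in sham replicates. The groups overlapped in 1 surgery value, the log2 fold change was negative in both batches (-0.54 and -1.06), and it was not called (-0.75 ± 0.29 over both, edgeR adjusted p = 0.9998); the surgery replicates held between 17 and 56 of these cells. Ccl4 there had -0.63 ± 0.30, with -1.46 in batch 1 and 0.08 in batch 2.

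The wider chemokine system was described with a list of 69 further ligands, receptors and signalling genes. Over all cells 44 of the 69 could be tested and 0 were called in either direction, with 3 at an unadjusted p under 0.05. Their median log2 fold change was 0.04, against -0.00211 over all genes, so of all genes at least as many lay below 0 as above. In the list, 11 of 13 ligands, 4 of 9 receptors and 19 of 22 signalling genes had estimates above 0. In the 14 types between 15 and 33 genes of the list were tested, and 0 were called. The direction varied between types: 23 of 33 list genes lay above 0 in monocyte progenitors, 12 of 32 in ungated cells and 4 of 22 in lymphoid-primed cells. The list medians there were 0.04, -0.03 and -0.08, against -0.0008, -0.0016 and 0.0073 over all genes. Signalling genes made up 22, 22 and 20 of these list genes. The genes share replicates, so the counts are a description. The lowest adjusted p was that of Mif, a ligand of Cd74 and Cxcr4, in plasmacytoid-like cells (log2 fold change 0.48 ± 0.11, edgeR adjusted p = 0.0948). Rgs2, a brake on G-protein signalling, had 0.20 ± 0.05 in monocyte progenitors (edgeR adjusted p = 0.172). Ccr2, the receptor by which monocytes leave the marrow, had 0.17 ± 0.05 in monocyte progenitors (edgeR adjusted p = 0.540) and was at 232 ± 19.99 CPM there (SD, n = 8).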

How the data were processed

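The deposited matrices hold raw counts: whole UMI numbers for each gene in each barcode, with rows for the hashtags. Per the submitters' processing notes, Cell Ranger and the build GRCm38 were used; versions and strand of counting are not given in the sources used here. A barcode was kept with 500 or more genes, 1000 or more UMIs and a mitochondrial share of 10% or less (17065 of 18094 in batch 1, 13568 of 14179 in batch 2). Cells needed exactly 1 hashtag with at least 200 counts. Hashtag counts, 22.2% and 16.1% of all counts, stayed out of totals and tests. Scrublet doublets (0.592% and 0.671%) were removed, so many doublets of 1 hashtag may remain.

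A cell took the class with the highest mean z-score of log-normalised markers if the score was at least 0.5, the margin at least 0.2 and at least 3 markers had a UMI. Cells of the MHC class II gate with UMIs of at least 2 B-cell markers were set apart, a choice made after seeing the data. Leiden clusters used scanpy 1.11.5 with 2000 variable genes, 30 components, 15 neighbours and resolution 1.

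Counts were summed per replicate and type (at least 10 cells in each replicate) and tested with edgeR 4.0.16 in R 4.3.3: filterByExpr, TMM scaling, batch as a term, Benjamini-Hochberg adjustment within each comparison, called under 0.05. Interactions of group and batch, and the log2 fold changes within batches, came from separate fits to the same sums with an interaction term added. DESeq2 1.42.0 was an alternative. The edgeR script was tested on simulated data. Floors for counts of 0 use 3 counts and cover counting error only. Promoter windows came from RefSeq, where 8 of the 10 genes matched; positions came from GENCODE.

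Replicate numbers are shared between groups, but same-numbered replicates did not deviate together (correlations between -0.000698 and 0.0151), so they were not treated as pairs. The 10 genes, the gene lists and the tests were chosen with earlier results of these data known. The genes named were these 10, list genes past the threshold (none was), and the nearest genes by distribution; Xcr1, Cxcl12 and the list genes with low p were named after their values were seen. A further item is not reported here.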

Additional observations from a re-analysis of the deposited data

Results flagged for a closer look

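The surgery effect on Cxcr4 in monocyte progenitors differed between the batches. The difference of log2 fold changes, batch 2 minus batch 1, was -0.59 (edgeR interaction, adjusted p = 0.0447). Surgery was above sham in 2 of 2 replicates of batch 1 and below it in 2 of 2 of batch 2, an order that so few replicates easily reach by chance.

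Among 40 groups of 4 replicates examined (each gene over all cells and in its highest type), 2 held a replicate far from the others, and chance flags about 1 in 20 groups. Xcl1 in T, NK or innate lymphoid cells was 1474 CPM in sham replicate 1 of batch 2, against 984 to 991 CPM in the other sham replicates. Cx3cr1 in plasmacytoid-like cells was 28.1 CPM in surgery replicate 1 of batch 2, against 68.8 to 73.5 CPM in the other surgery replicates.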

How the results depend on the processing

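No gene of the 10 was called over all cells under any alternative run. In the cell types the count of calls, 0 as reported, was 5 with no filter on low counts, 1 with the replicate block with batch, and between 0 and 1 when each replicate was left out. Ccl4 in lymphoid-primed cells was among the 5 (log2 fold change -0.50, adjusted p = 8.70e-05) and was the gene called in each of the other cases; the others without the filter were Ccl4 in neutrophil-granulocyte progenitors, and Ccl3 in monocyte progenitors, basophil-mast cells and T, NK or innate lymphoid cells. The alternatives for Ccl4 and Ccl3 in lymphoid-primed cells and for the Cxcr4 interaction were chosen after seeing the data. The replicate numbers share no more than a name in these data; under the block, calls among all genes over all cells were 0, against 7 without it, and in lymphoid-primed cells 44, against 27.

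The Cxcr4 difference between batches in monocyte progenitors kept its sign and lost its call with a hashtag minimum of 500 counts (-0.59, adjusted p = 0.0526), with cells thinned to 2000 UMIs (-0.70, adjusted p = 0.278) and in Leiden clusters (-0.51, adjusted p = 0.143); without single replicates it ran from -0.73 to -0.50. It held under the other 6 settings run with all replicates, and without surgery replicate 2 of batch 2 or sham replicate 2 of batch 1. The cause was not tested. Calls among all genes over all cells, 7 as reported, were 21 with DESeq2, 22 with no filter on low counts, 2 with thinned cells, 0 with no batch term and between 0 and 8 without single replicates. In lymphoid-primed cells, 27 as reported, they were 16, 64, 9 and 15, and between 16 and 33. With no low-count filter they were 44, against 3, in ungated cells, 90, against 9, in neutrophil-granulocyte progenitors, 67, against 12, in monocyte progenitors and 44, against 0, in B cells, where DESeq2 called 7. Leaving out single replicates took the calls from 0 to 115 in MHC class II cells with B-cell genes (without surgery replicate 1 of batch 2), to 10 in B cells (without sham replicate 1 of batch 1) and to 6 in erythroid cells (without sham replicate 2 of batch 2). In HSC and early multipotent cells the level in the Leiden cluster was 238 CPM for Ccl9, 169 CPM for Ccl3 and 336 CPM for Ccl4, against 177, 96.7 and 222 CPM in the gate. Over all cells, Ccl3, Ccl4, Ccl6, Ccl5, Ccr1, Cxcr4, Cxcr2 and Cx3cr1 each changed sign under at least 1 alternative, none of them called; Ccl9 and Xcl1 did not. Ccl3 in lymphoid-primed cells changed sign with thinned cells (0.0057). Leaving out 1 cell for Ccl6 in basophil-mast cells was chosen after seeing the data. Types with few cells, such as the 17 lymphocytes of 1 surgery replicate, limit what could be tested.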
